A study of Mus musculus with 40 samples.

Results

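The comparison of 7aaRGD with vehicle at 21 days after implantation (DPI) comprised 6 of the 40 samples of the series, 3 with vehicle and 3 with 7aaRGD. They were chosen by their labels, and no measured value entered that choice. Each sample was RNA of CD11b+ cells (myeloid cells, from microglia to infiltrating monocytes), sorted by FACS from the tumor-bearing hemispheres of 2 male C57BL/6J mice, aged 10 to 12 weeks. All of these mice carried GL261 glioma cells, a murine line marked with tdTomato and luciferase, in the right striatum. They also carried an osmotic pump that delivered water (vehicle) or 2 mg/ml 7aaRGD into the tumor for 21 days. In the same experiment, 3 samples came from mice given 7aaRAE, the control peptide in which the RGD motif is replaced by RAE, at the same 2 mg/ml, and 3 from naïve mice without a tumor. Pools of 2 animals limit the design, because the difference between single animals is not seen.

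RGD is the sequence of Arg, Gly and Asp by which several integrins, the adhesion receptors of the cell surface, bind extracellular matrix and secreted proteins. The peptide was made to keep osteopontin (the product of Spp1) and lactadherin (Mfge8) from binding the integrins αvβ3 and αvβ5 of myeloid cells. In glioma, CD11b+ cells are a mixture of resident microglia and of monocytes and macrophages that come from the blood. Microglia of healthy brain are recognized by a set of homeostatic genes, which are lower once the cells are in a glioma. The question of the comparison is which transcripts of these cells differed after the peptide.

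Expression was given in RPKM, which divides reads by the length of the gene and the size of the library, and was compared as log2(RPKM + 1) over 9436 protein-coding genes, those that averaged 1 RPKM or more across the 9 samples with a tumor. Read totals were not used here, and sequencing depth is unknown. Between 9349 and 9405 genes reached 1 RPKM in the vehicle samples, and between 9490 and 9565 in the 7aaRGD samples. Markers of the sort were present in every sample, with Itgam, which encodes CD11b, between 51.2 and 67.5 RPKM and Csf1r, the receptor for colony-stimulating factor, between 714 and 888 RPKM in the vehicle and 7aaRGD samples. The median SD between replicates was 0.086 on the log2 scale in both groups. The replicate differences of this table spanned 7 of the 8 dimensions that 12 samples in 4 groups allow. The combination of samples along which the deviations from the group means were 0 in every gene drew 70.1% of its squared weight from the 7aaRGD samples, of which 46.3% from 7aaRGD sample 1, and 15.5% from the vehicle samples. Among the genes past the threshold the median SD was 0.074 in the 7aaRGD samples and 0.122 in the vehicle samples. The part of this property in the p-values below was not tested, beyond a fit with 1 residual degree of freedom less, which called 0 genes, with 945 at an unadjusted p under 0.05.

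With 7aaRGD, 13 genes rose (0.138% of the genes tested) and 1 fell (0.0106%), in all 0.148% (limma, Benjamini-Hochberg adjusted p under 0.05). The genes that rose were Adamts1, Clu, Cpe, Fasn, Gm1673, Jam3, Maged1, Nes, Pla1a, Ptprs, Serpina3n, Spry1 and Stk39, and the gene that fell was Clybl, which encodes a mitochondrial lyase. At an unadjusted p under 0.05 there were 878 higher (9.30%) and 400 lower (4.24%). Of these 1278 genes (13.5%) 68.7% were higher, against 52.9% with median-of-ratios scaling and 81.5% without the filter on low values. The adjusted p-values of the 14 genes lay between 0.0383 and 0.0469, and the log2 fold changes of the 13 genes between 0.37 and 1.04. All were of low level. Their vehicle means lay between 0.629 and 5.5 RPKM, under 5 RPKM in 12 of the 13, and the highest 7aaRGD value was 8.56 RPKM. Without vehicle sample 3 all 14 were called among 120 genes, without vehicle sample 1 or 2 there was 1 call, and without any of the 3 7aaRGD samples there were 0, so that each of these 6 libraries moves the count.

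**Figure D1:**
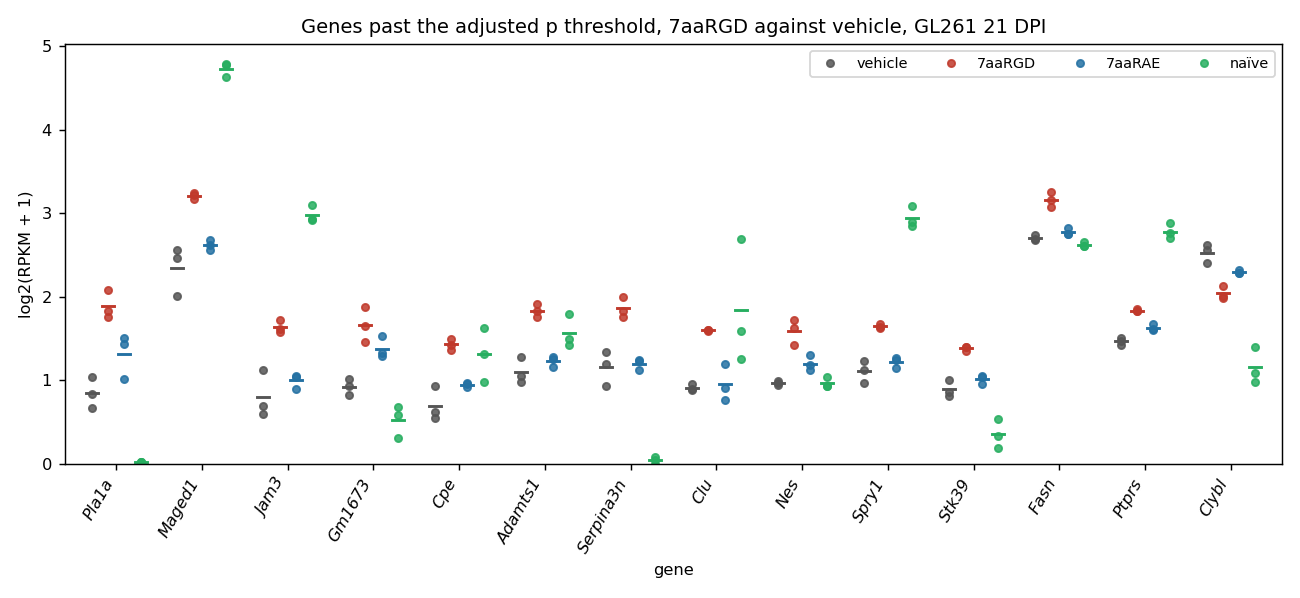
Level of the 14 genes past the adjusted p threshold in each of the 12 samples, as log2(RPKM + 1); points are samples, each a pool of 2 mice, and bars are group means. In each gene the 3 7aaRGD samples lie on 1 side of the 3 vehicle samples, while the naïve samples lie above vehicle in some genes (Maged1, Jam3, Spry1, Ptprs) and below in others (Pla1a, Serpina3n, Stk39).

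Among these genes, Clu (chr14:65968483-65981547, plus strand of mm10) encodes clusterin, a secreted chaperone. It was at 0.843, 0.856 and 0.937 RPKM in the vehicle samples and at 2.01, 2.03 and 2.04 RPKM in the 7aaRGD samples, a log2 fold change of 0.69 ± 0.097 (SE, limma adjusted p = 0.0383). The 7aaRAE samples held 0.882, 0.702 and 1.29 RPKM, at the level of vehicle. The narrow spread of the 7aaRGD samples stands beside naïve samples that ranged from 1.38 to 5.48 RPKM. Adamts1 (chr16:85793827-85803113, minus strand), a secreted protease of the extracellular matrix, was at 1.42, 0.974 and 1.08 RPKM with vehicle and at 2.54, 2.78 and 2.38 RPKM with 7aaRGD, a log2 fold change of 0.73 ± 0.084 (SE, limma adjusted p = 0.0383). Serpina3n, a serine protease inhibitor made by reactive glia, was at 1.53, 0.913 and 1.29 RPKM with vehicle and at 2.55, 3 and 2.37 RPKM with 7aaRGD. In naïve mice it did not exceed 0.061 RPKM, and with 7aaRAE it was at 1.37, 1.17 and 1.34 RPKM. Both genes were separated from vehicle in all samples with 7aaRGD and overlapped it with 7aaRAE.

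Fasn, which encodes fatty acid synthase, had the highest level of the group with Maged1. Its vehicle samples were at 5.44, 5.66 and 5.41 RPKM and its 7aaRGD samples at 7.9, 8.56 and 7.45 RPKM, with a log2 fold change of 0.46 ± 0.059 (SE, limma adjusted p = 0.0383). Maged1, a MAGE family member known from neural development, was at 4.51, 3.03 and 4.9 RPKM with vehicle and at 8.34, 8 and 8.44 RPKM with 7aaRGD. Both are genes of which the naïve samples held a similar amount or more, 5.16 RPKM for Fasn and 25.6 RPKM for Maged1 on average. Nes encodes nestin, the intermediate filament of neural progenitors and of many glioma cells. It was at 0.987, 0.921 and 0.948 RPKM with vehicle and at 2.09, 2.31 and 1.68 RPKM with 7aaRGD. Cpe, a carboxypeptidase that matures neuropeptides, and Spry1, a feedback inhibitor of receptor tyrosine kinase signalling, rose by log2 fold changes of 0.73 and 0.54. Jam3, a junctional adhesion molecule, Ptprs, a receptor tyrosine phosphatase, and Stk39, a kinase that regulates ion cotransporters, rose by 0.84, 0.37 and 0.49 on the same scale.

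The direct comparison with 7aaRAE shares the 7aaRGD samples that chose these genes and is not independent of that choice. All 13 were higher with 7aaRGD than with 7aaRAE at an unadjusted p under 0.05 (4.37% of all genes tested were), and in 12 the samples did not overlap (7.82% of all). None passed the adjusted threshold, where the smallest adjusted p of any gene was 0.148 (limma, 0 genes or 0.00% called, 520 or 5.51% at an unadjusted p under 0.05). The log2 difference from 7aaRAE was 0.64 for Clu, 0.60 for Adamts1, 0.67 for Serpina3n and 0.39 for Fasn. Between 7aaRAE and the same vehicle samples, 6 of the 13 were higher at an unadjusted p under 0.05 (3.32% of all genes). This comparison shares the vehicle samples that chose the 13 genes, so it is not independent of that choice either. Of all genes limma called 0, with 600 (6.36%) at an unadjusted p under 0.05.

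Most of the genes that separated the groups were higher, and the excess was largest among genes of low level. The 3 samples of one group lay beyond those of the other for 1180 genes higher with 7aaRGD (12.5% of the genes tested) and for 482 lower (5.11%). Among the 2700 genes between 0.1 and 1 RPKM, which were not tested, 26.9% were higher in all 7aaRGD samples and 4.22% lower. Between 1 and 2 RPKM these shares were 18.1% and 5.30%, and over 100 RPKM they were 10.1% and 6.13%. The values are relative, and this split rests on the scaling. With median-of-ratios factors the counts were 870 higher and 784 lower, 52.6% higher against 71.0% with the values as deposited, and the median log2 fold change of all genes tested was 0.00025 against 0.021. Under that scaling too the shares between 1 and 2 RPKM were 14.4% higher and 6.78% lower, and limma called 0 genes, with 1270 at an unadjusted p under 0.05.

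**Figure D2:**
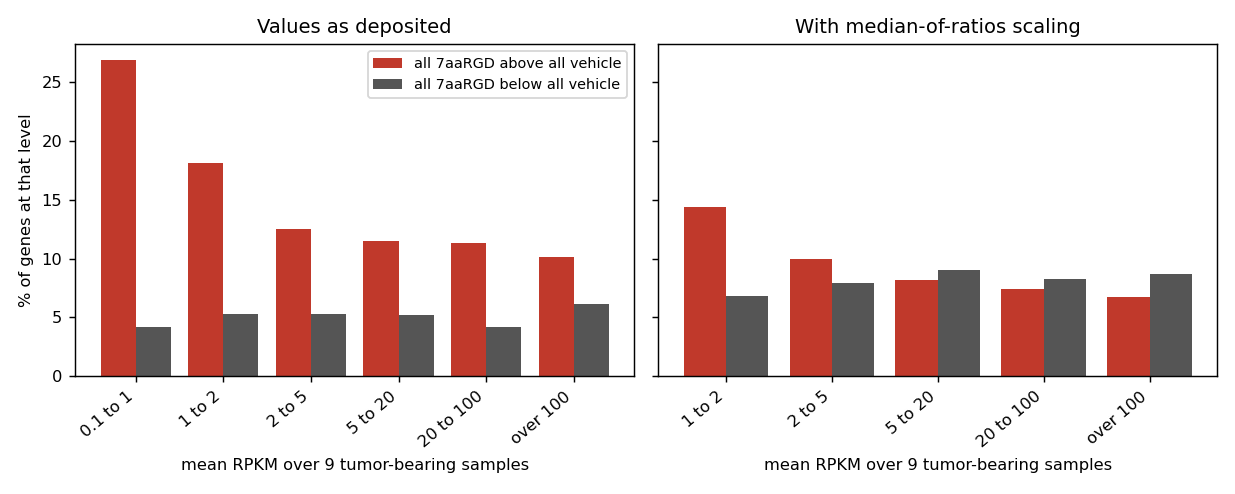
Share of genes whose 3 7aaRGD samples all lay above (red) or all below (grey) the 3 vehicle samples, by mean RPKM over the 9 tumor-bearing samples. With the values as deposited the share of higher genes falls from 26.9% between 0.1 and 1 RPKM to 10.1% over 100 RPKM, and with median-of-ratios scaling higher genes outnumber lower ones only under 5 RPKM.

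The largest of the higher values without overlap was that of a gene not known from myeloid cells. Ttr encodes transthyretin, a product of the choroid plexus epithelium, and was at 21.2, 27.4 and 49 RPKM with vehicle, at 95.3, 66.9 and 99.7 RPKM with 7aaRGD and at 26.6, 19.5 and 33.3 RPKM with 7aaRAE. The log2 fold change was 1.46 ± 0.29 (SE, limma adjusted p = 0.119), and it did not pass the threshold. In the naïve samples, which had neither tumor nor peptide, Ttr ranged from 22.2 to 318 RPKM, more widely than between the groups. Enpp2, which encodes autotaxin and is abundant in the same epithelium, was at 2.05, 2.64 and 4.31 RPKM with vehicle and at 8.9, 6.06 and 9.12 RPKM with 7aaRGD, a log2 fold change of 1.19 ± 0.23 (SE, limma adjusted p = 0.113). A list of 14 choroid plexus genes was drawn up after Ttr and Enpp2 had been seen, and Ttr made up most of its sums. Without these 2 genes, which prompted it, the other 12 summed to between 1.15 and 3.41 RPKM with vehicle, between 4.69 and 6.34 RPKM with 7aaRGD, between 1.33 and 2.69 RPKM with 7aaRAE and between 1.37 and 20.1 RPKM in naïve mice. Of the 12, all under the mean of 1 RPKM, 10 were higher in every 7aaRGD sample than in every vehicle sample, beside 26.9% of all genes between 0.1 and 1 RPKM. Prlr, Otx2 and Trpm3 lay under that range, at no more than 0.0906 RPKM in any tumor-bearing sample. Of the 14, 13 had the same order of the 3 naïve samples, among them Folr1 and Kl. Clu, also made by this epithelium, followed the same order in the naïve samples. In bulk samples, more or fewer cells of a type and more or less RNA per cell cannot be told apart. The part of these cells in the results for Clu and other genes was not tested.

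**Figure D3:**
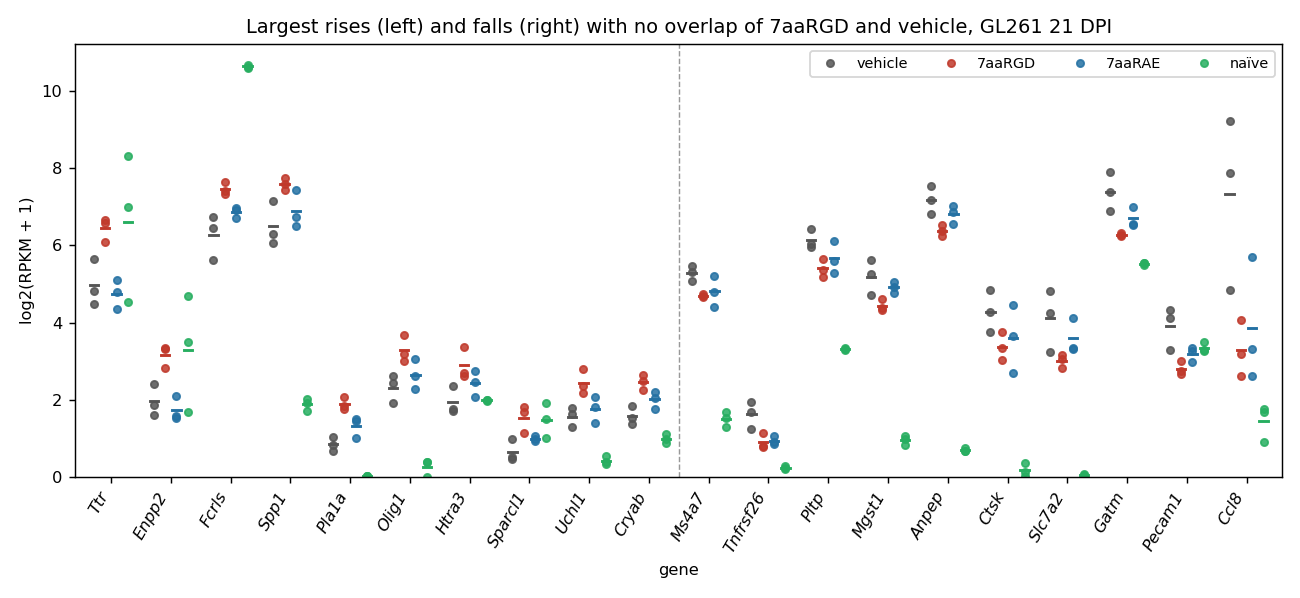
Level in each sample, as log2(RPKM + 1), of the 10 largest positive (left of the dashed line) and the 10 largest negative differences (right) among genes whose 7aaRGD and vehicle samples do not overlap; points are samples and bars group means. Ttr and Enpp2 are spread widely among the naïve samples, and Ccl8 among the vehicle samples.

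Transcription factors of the oligodendrocyte lineage were higher too, while the 3 myelin genes tested had values near those of vehicle. Olig1, a transcription factor of that lineage, was at 4.36, 2.78 and 5.09 RPKM with vehicle and at 8.1, 11.7 and 7.01 RPKM with 7aaRGD (log2 fold change 0.97, standard error 0.24, limma adjusted p = 0.177). In naïve mice it did not exceed 0.308 RPKM. The 14 oligodendrocyte lineage markers summed to between 49.5 and 58.2 RPKM with vehicle, between 64.5 and 71.5 RPKM with 7aaRGD, between 52.5 and 59.4 RPKM with 7aaRAE and between 39.3 and 40.1 RPKM in naïve mice. Of the 7 members tested 6 were higher (57.7% of all genes), 0 passed the adjusted threshold, and the median log2 fold change was 0.37. Sox10 and Olig2 had log2 fold changes of 0.87 and 0.90, and the myelin genes Mag, Cnp and Mbp of -0.036, 0.0053 and 0.11. Mog and Mobp, which define mature oligodendrocytes, were among the 7 under the filter. A list of 17 neural progenitor and glioma-type genes, also drawn up after the values had been seen, held Nes, Sox2, Sox10 and Olig2. In 8 of the 17 every 7aaRGD sample was above every vehicle sample, 5 of them among the 9 tested (12.5% of all genes tested). Of the 9 tested 1, Nes, passed the threshold. Because genes already seen to be higher were put in the list, these counts are not independent of that choice. The mean was above that of vehicle in 15 of the 17 with 7aaRGD and in 15 with 7aaRAE. Uchl1, a neuronal hydrolase of ubiquitin, and Cryab, a small heat shock protein of glia, both had a log2 fold change of 0.88. Htra3, a secreted serine protease, and Sparcl1, a matrix protein of astrocytes, had log2 fold changes of 0.95 and 0.89.

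Some other marker lists were higher too, at low levels. The 9 neuronal markers summed to between 1.83 and 2.89 RPKM with vehicle and between 3.37 and 5.85 RPKM with 7aaRGD, where Tubb3 was the only one tested and Snap25, Syt1 and Rbfox3 were under the filter. The 6 erythroid markers summed to between 1.16 and 3.43 RPKM and between 5.34 and 7.5 RPKM, without overlap. T cell markers were between 2.39 and 9.8 RPKM with vehicle and between 9.35 and 21.2 RPKM with 7aaRGD, which overlapped. Only Cd4 and Lck of the 12 T cell markers reached the filter, and Cd3e, Cd3d and Cd8a did not. NK and cytotoxic markers summed to between 291 and 605 RPKM with vehicle and between 347 and 529 RPKM with 7aaRGD, which overlapped. Of the 9 tested, 8 were higher (57.7% of all genes), Ccl5 was lower (log2 fold change -0.29), and the median log2 fold change was 0.61, or 0.98 without 7aaRGD sample 3. Klrd1, a receptor subunit of NK cells, was at 3.84, 2.65 and 2.82 RPKM with vehicle and at 4.29, 4.74 and 5.31 RPKM with 7aaRGD. Neutrophil markers summed to between 139 and 284 RPKM with vehicle and between 157 and 222 RPKM with 7aaRGD, which overlapped, and astrocyte markers to between 17.8 and 22.7 RPKM and between 16.3 and 18.3 RPKM, which also overlapped. The B cell and endothelial lists also overlapped. The part of these cells in the genes that rose was not tested.

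**Figure D4:**
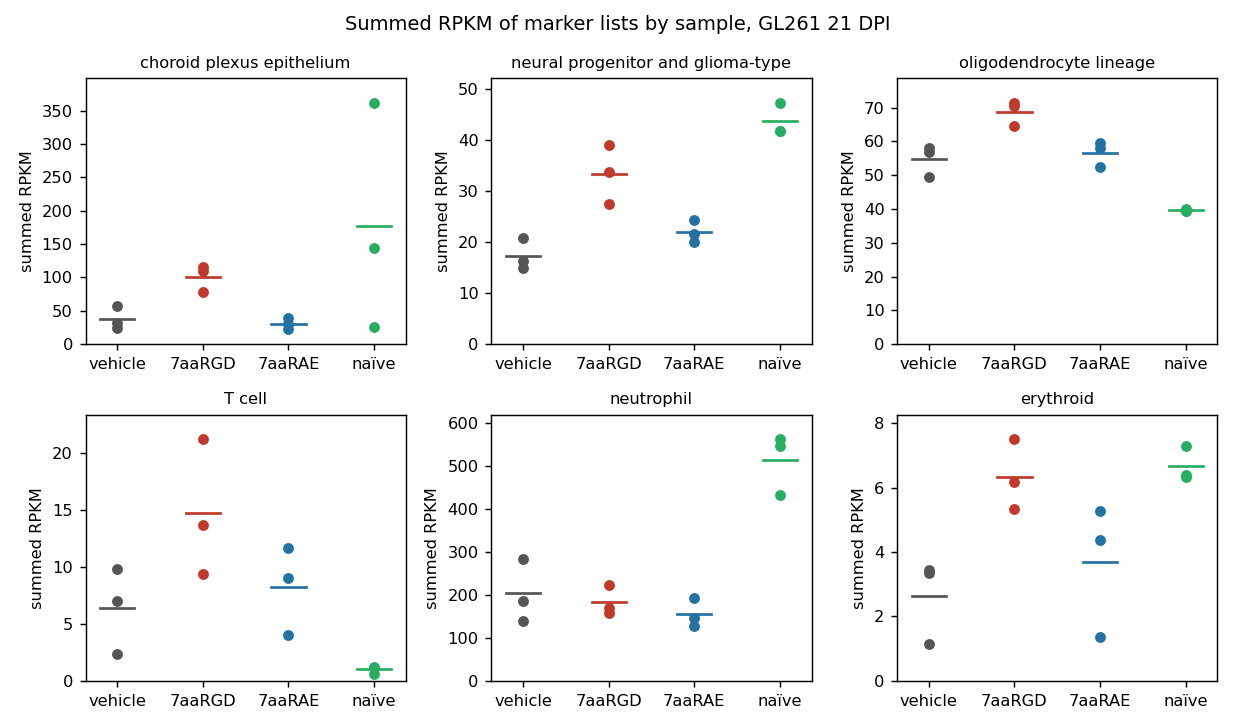
Summed RPKM of marker lists in each sample of the 4 groups (points) with the group mean (bars); each axis starts at 0 and values below 0 were set to 0. The choroid plexus, oligodendrocyte and erythroid sums of the 7aaRGD samples lie above all vehicle samples, and the choroid plexus sums of the naïve samples range from 25.7 to 362 RPKM; the naïve sums of the neural progenitor list are mostly Sox4, between 39 and 45 RPKM.

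Among the ligands with an RGD sequence, 5 of 12 were tested and 0 passed the adjusted threshold. Spp1 (chr5:104435118-104441050, plus strand), osteopontin, was at 142, 65.4 and 77.2 RPKM with vehicle, at 172, 194 and 213 RPKM with 7aaRGD, at 90.4, 172 and 105 RPKM with 7aaRAE and near 2.69 RPKM in naïve mice. Every 7aaRGD sample was above every vehicle sample, with a log2 fold change of 1.09 ± 0.29 (SE) that did not pass the threshold (limma adjusted p = 0.196). The log2 difference from 7aaRAE was 0.70, and 7aaRAE sample 2 reached the lowest 7aaRGD value. Mfge8, the other ligand, was at 5.21, 5.71 and 3.54 RPKM with vehicle and at 4.14, 4.06 and 5.86 RPKM with 7aaRGD, which overlapped, and its log2 fold change was -0.029 (standard error 0.16, limma adjusted p = 0.953). Thbs1, thrombospondin 1, was at 210, 111 and 138 RPKM with vehicle and at 161, 198 and 216 RPKM with 7aaRGD, while Fn1, fibronectin, was at 227, 196 and 150 RPKM and at 161, 201 and 140 RPKM. Neither was separated. Tgfb1, whose latent form is bound through RGD, was at 134, 123 and 142 RPKM and at 151, 144 and 150 RPKM, with a log2 fold change of 0.15. The other 7 ligands listed, Postn, Vtn, Tgfb3, Edil3, Tnc, Ibsp and Fbn1, were under 1 RPKM on average.

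Of the integrin subunits that bind these ligands 5 of 9 were tested, and 0 passed the adjusted threshold. Itgb5, the β5 subunit, was at 221, 166 and 212 RPKM with vehicle and at 236, 227 and 260 RPKM with 7aaRGD, and the groups did not overlap (log2 fold change 0.28, limma adjusted p = 0.313). Itgb3, β3, was at 3.82, 2.03 and 3.1 RPKM and at 3.97, 3.47 and 4.98 RPKM, and Itgav, their αv partner, at 12.6, 10.8 and 12.3 RPKM and at 12.6, 12.6 and 11.4 RPKM. Both overlapped. In naïve mice all 3 were higher than in any tumor-bearing sample, with means of 897, 27.1 and 32.8 RPKM. Itga5 and Itgb1, the subunits of the fibronectin receptor, had log2 fold changes of 0.20 and -0.04, and Itgb6, Itgb8, Itga8 and Itga2b were under the filter. Of 28 genes tested for focal adhesion and integrin signalling, 16 were higher and 4 without overlap, close to the 57.7% and 12.5% of all genes, 0 passed the adjusted threshold, and the median log2 fold change was 0.018, near the 0.021 of all genes. Elmo1, a regulator of Rac in phagocytosis, had the smallest p of that list, at a log2 fold change of 0.28.

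Homeostatic microglia genes were higher as a group. Of the 24 genes, all tested, 21 were higher with 7aaRGD, 11 without overlap, against 57.7% of all genes higher and 12.5% without overlap, and the median log2 fold change was 0.35. Over the fits that left out 1 sample the median lay between 0.25 and 0.47. None passed the adjusted threshold. Fcrls (chr3:87250758-87263738, minus strand), an Fc receptor-like molecule of microglia, led the list at 106, 48.4 and 86.6 RPKM with vehicle and at 169, 161 and 198 RPKM with 7aaRGD, a log2 fold change of 1.19 ± 0.24 (SE, limma adjusted p = 0.119). The 7aaRAE samples, at 104, 120 and 124 RPKM, overlapped the vehicle samples, and the naïve samples near 1600 RPKM. Vehicle sample 2 was the lowest of the 9 tumor-bearing samples in Fcrls. Cx3cr1, the fractalkine receptor, was at 251, 166 and 248 RPKM with vehicle and at 310, 266 and 372 RPKM with 7aaRGD (log2 fold change 0.52). Golm1 and Sall3, a Golgi protein and a transcription factor, had log2 fold changes of 0.44 and 0.37. P2ry12, a purinergic receptor of microglia, was at 111, 75.1 and 125 RPKM with vehicle and at 156, 127 and 178 RPKM with 7aaRGD, again without overlap. The median of the list between 7aaRAE and the same vehicle samples was 0.17, with 21 of 24 higher (52.0% of all genes).

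**Figure D5:**
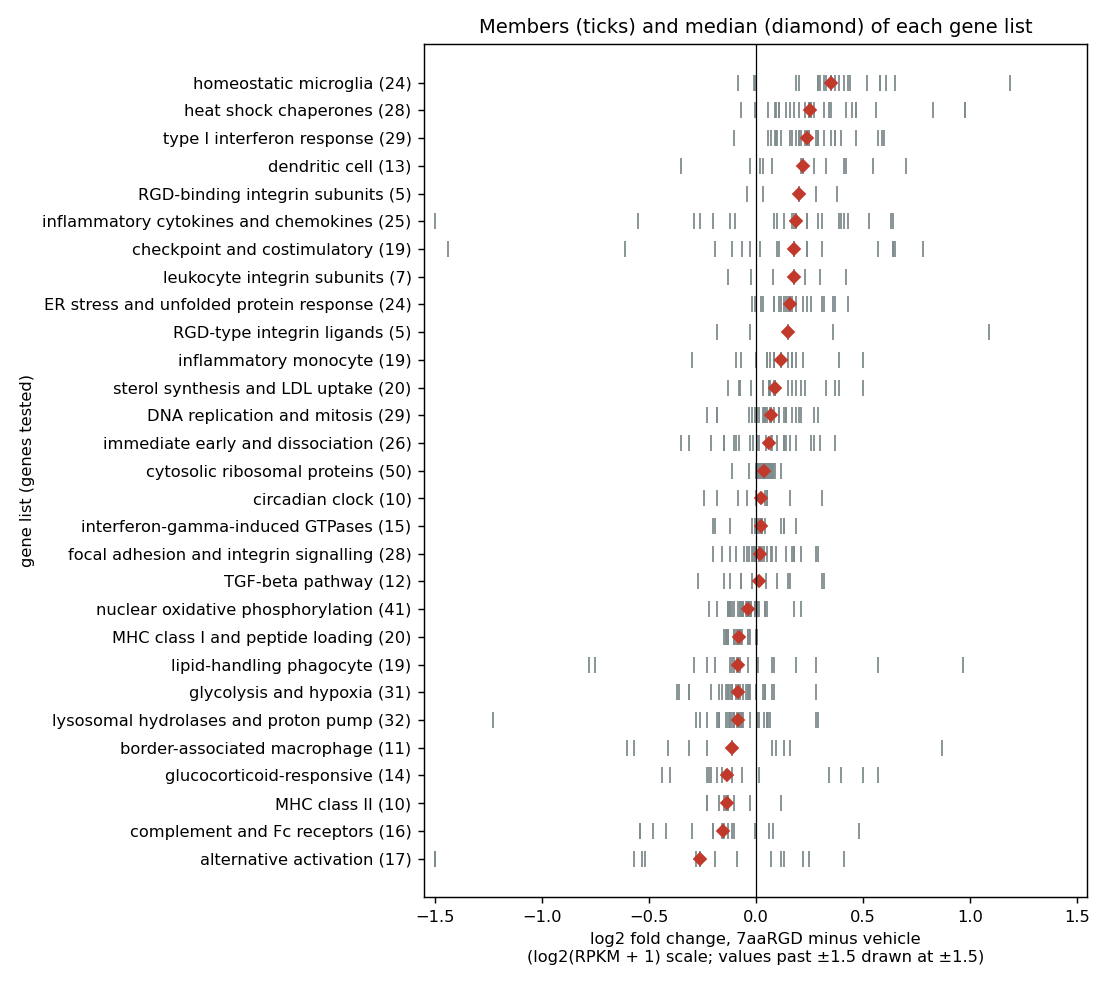
Log2 fold change between 7aaRGD and vehicle of every tested member (ticks) and the median (diamond) of 29 gene lists, ordered by median; the number of genes tested is in parentheses, and 4 ticks beyond 1.5 in size are drawn at the edge. Homeostatic microglia, heat shock and type I interferon genes have the highest medians (0.35, 0.26 and 0.24), and alternative activation genes the lowest (-0.26).

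Chaperones of the cytosol and of the endoplasmic reticulum were also higher as lists. Heat shock proteins fold other proteins and many are induced by heat shock factor 1, while the unfolded protein response raises the chaperones of the endoplasmic reticulum. Of 28 heat shock chaperones tested, 26 were higher (57.7% of all genes), 14 without overlap (12.5% of all genes), and the median log2 fold change was 0.26, which became 0.16 without 7aaRGD sample 2. Of 24 genes of the unfolded protein response, 22 were higher and 13 without overlap, beside the same shares of all genes, with a median of 0.16. In both lists 0 genes passed the adjusted threshold. Hsp90ab1, the constitutive HSP90, was at 438, 407 and 415 RPKM with vehicle and at 581, 687 and 470 RPKM with 7aaRGD (log2 fold change 0.45, limma adjusted p = 0.196). Hspd1, the mitochondrial chaperonin, was at 36.7, 33.7 and 34.5 RPKM and at 48.4, 57.4 and 41.5 RPKM (0.47, adjusted p = 0.149), and Cct3, a subunit of the cytosolic chaperonin, had a log2 fold change of 0.27. In each of the 3 genes 7aaRGD sample 2 was the highest. Hspa5, the chaperone BiP of the endoplasmic reticulum, was at 272, 262 and 258 RPKM with vehicle and at 319, 376 and 290 RPKM with 7aaRGD, a log2 fold change of 0.31. Hyou1, a co-chaperone, was at 39.4, 41.8 and 39.2 RPKM and at 50.5, 56.2 and 49.8 RPKM, with a log2 fold change of 0.37. With 7aaRAE the medians over the same genes were 0.15 and 0.081, with 27 of 28 and 20 of 24 higher than in the same vehicle samples (52.0% of all genes). Between the peptides the medians were 0.084 and 0.085.

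Type I interferon genes were higher with both peptides. Of 29 tested, 28 were higher with 7aaRGD (57.7% of all genes), 12 without overlap (12.5%), 0 passed the adjusted threshold, and the median log2 fold change was 0.24, which became 0.15 without vehicle sample 1. The median was 0.25 with 7aaRAE, where all 29 were higher than in the same vehicle samples, and between the peptides it was 0.031. Rsad2, the antiviral enzyme viperin, was at 62.1, 65.2 and 82.6 RPKM with vehicle and at 115, 115 and 88.7 RPKM with 7aaRGD (log2 fold change 0.60, limma adjusted p = 0.23). Ifit3b was at 22.5, 19.7 and 26.7 RPKM and at 38, 31.6 and 34.7 RPKM, and Cmpk2, a nucleotide kinase beside Rsad2 in the genome, had a log2 fold change of 0.57. The GTPases induced by interferon-gamma had a median of 0.023, with 10 of 15 higher and 0 without overlap, and the median lay between -0.17 without vehicle sample 1 and 0.17 without 7aaRGD sample 3.

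Some members of these lists hold a known motif in their promoters, and most or as many do not. The sequences are shown for genes described above that hold the motif, 300 bases from 250 before to 50 after a transcription start of RefSeq (GRCm38.p6), on the strand of the gene, with the match in capitals. The motifs, searched on both strands, were CCAAT and CCACG with 9 bases of any kind between them, the endoplasmic reticulum stress element, in Hspa5 (chr2:34771840-34772139, plus strand), GAA, TTC and GAA with 2 bases of any kind between each, the heat shock element, in Hspd1 (chr1:55087883-55088182, minus strand), and GAAA and GAAA with 2 bases of any kind between them, the core of the interferon-stimulated response element, in Ifit3b (chr19:34607707-34608006, plus strand) and Rsad2 (chr12:26456403-26456702, minus strand). Adjacent matches of the same motif run together in capitals. A second start of Hspd1 (chr1:55088194-55088493) and the promoters of Cct3, Cmpk2 and Sdf2l1 had 0 matches to the motif of their list.
Hspa5: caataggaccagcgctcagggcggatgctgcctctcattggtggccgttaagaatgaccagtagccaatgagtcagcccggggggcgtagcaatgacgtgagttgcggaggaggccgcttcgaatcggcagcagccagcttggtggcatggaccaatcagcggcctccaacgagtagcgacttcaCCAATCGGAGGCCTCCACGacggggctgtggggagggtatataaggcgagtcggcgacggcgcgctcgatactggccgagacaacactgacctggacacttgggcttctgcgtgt
Hspd1: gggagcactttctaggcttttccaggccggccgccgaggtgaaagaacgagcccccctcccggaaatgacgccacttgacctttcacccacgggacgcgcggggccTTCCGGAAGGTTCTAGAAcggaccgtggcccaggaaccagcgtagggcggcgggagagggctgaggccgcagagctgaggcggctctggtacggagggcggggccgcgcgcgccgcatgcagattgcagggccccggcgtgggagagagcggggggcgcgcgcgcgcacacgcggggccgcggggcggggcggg
Ifit3b: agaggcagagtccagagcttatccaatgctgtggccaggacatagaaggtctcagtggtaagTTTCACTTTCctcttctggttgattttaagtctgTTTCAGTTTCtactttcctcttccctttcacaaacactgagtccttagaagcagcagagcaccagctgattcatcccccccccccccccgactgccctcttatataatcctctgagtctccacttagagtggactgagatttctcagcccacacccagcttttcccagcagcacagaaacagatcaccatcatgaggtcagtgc
Rsad2: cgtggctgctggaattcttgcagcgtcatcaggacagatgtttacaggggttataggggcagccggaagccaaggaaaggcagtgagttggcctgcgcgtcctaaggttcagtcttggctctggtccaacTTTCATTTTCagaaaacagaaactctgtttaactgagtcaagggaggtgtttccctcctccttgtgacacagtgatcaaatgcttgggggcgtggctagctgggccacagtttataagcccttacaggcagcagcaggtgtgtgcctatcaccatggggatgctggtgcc
The stress element was found in 7 of the 21 unfolded protein response genes with a promoter in the table, among them Hspa5, Calr and Canx, against 0.137% of all 27025 genes. Of these 7, 6 were higher in every 7aaRGD sample, and of the 14 without it 5 were, beside 12.5% of all genes tested. The heat shock element was in 5 of 22 chaperone genes (0.662% of all genes), of which 3 did not overlap, and 7 of the other 17 did not overlap. The interferon element was in 11 of 22 interferon genes (3.99% of all genes), of which 7 did not overlap, against 3 of the 11 without it. The same 12.5% of all genes stands beside these counts too. A match describes these letters only, and a part of the motifs in the differences was not tested.

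On the lower side, the largest difference was in Ccl8 (chr11:82115185-82116799, plus strand), a chemokine for monocytes. It was at 598, 236 and 28 RPKM with vehicle and at 5.15, 8.08 and 15.9 RPKM with 7aaRGD, a log2 fold change of -4.03 ± 1.1 (SE, limma adjusted p = 0.195). The groups did not overlap, but vehicle sample 3 was closer to the 7aaRGD samples than to the other 2 of its group. Without it the log2 fold change was -5.26 and passed the threshold (limma adjusted p = 0.0304), in a fit that called 120 genes. With 7aaRAE it was at 8.91, 5.08 and 51 RPKM, and the log2 fold change from the same vehicle samples was -3.45. Gatm, the first enzyme of creatine synthesis, was at 165, 237 and 118 RPKM with vehicle and at 75.9, 75.5 and 79.3 RPKM with 7aaRGD (-1.10, adjusted p = 0.119). Slc7a2, a transporter of arginine and lysine, was at 18.1, 27.2 and 8.5 RPKM and at 6.05, 7.28 and 7.98 RPKM (-1.09, adjusted p = 0.257). Mgst1, a microsomal glutathione transferase, Pltp, the phospholipid transfer protein, and Ctsk, cathepsin K, had log2 fold changes of -0.76, -0.73 and -0.91. Those of Pecam1, an adhesion molecule, Anpep, an aminopeptidase, and Tnfrsf26, a receptor of the TNF family, were -1.11, -0.79 and -0.71. Ms4a7, a membrane protein of brain-border and infiltrating macrophages, was at 43.5, 33 and 39 RPKM and at 25.8, 24.4 and 24.8 RPKM. In most of these genes the vehicle samples were the more spread, with vehicle sample 2 highest and sample 3 lowest in Gatm, Slc7a2, Mgst1 and Ctsk.

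Lists of phagocyte function had medians below 0. Over all 9436 genes tested, 3993 were lower, and 5.11% of the 9436 were lower without overlap. Of 16 complement and Fc receptor genes 13 were lower, 3 without overlap, and the median log2 fold change was -0.15. C4b, a complement component, was at 109, 98.3 and 87 RPKM with vehicle and at 68.2, 59.4 and 74.2 RPKM with 7aaRGD, and at 94.7 RPKM on average with 7aaRAE (log2 fold change from vehicle -0.54, adjusted p = 0.163). Fcgr4, an activating receptor for IgG, was at 347, 386 and 420 RPKM and at 287, 289 and 284 RPKM (-0.42, adjusted p = 0.163). Of 32 lysosomal genes 23 were lower, 2 without overlap, with a median of -0.084. Atp6v0d2, a subunit of the proton pump, had the lowest log2 fold change of that list, -1.23, with overlap. Ctss, cathepsin S, was at 5946, 6631 and 6070 RPKM and at 5180, 4638 and 5577 RPKM. Of the 17 alternative activation genes tested 11 were lower, 2 without overlap, with a median of -0.26. That median lay between -0.41 without vehicle sample 3 and -0.10 without vehicle sample 1. With 7aaRAE the median over the same genes was -0.27, with 3 of 17 higher than in the same vehicle samples. Between the peptides it was 0.031. The 20 members summed to between 1353 and 3669 RPKM with vehicle, between 917 and 1171 RPKM with 7aaRGD and between 1116 and 1175 RPKM with 7aaRAE. With 7aaRGD the list held some of the largest negative log2 fold changes, of -3.03 for Ccl24, -2.15 for Arg1 and -1.58 for Chil3, and next that of Mrc1, the mannose receptor. Arg1, arginase 1, was at 845, 1224 and 201 RPKM with vehicle and at 95.6, 122 and 201 RPKM with 7aaRGD (limma adjusted p = 0.191). Chil3, a chitinase-like protein, was at 710, 943 and 187 RPKM and at 114, 176 and 228 RPKM (limma adjusted p = 0.257). In both the groups overlapped through vehicle sample 3, and without it the log2 fold changes were -2.93 (limma adjusted p = 0.00776) and -2.29 (limma adjusted p = 0.0139). That fit called 120 genes in total, while each fit without another sample called 0 or 1. Tgm2, a transglutaminase, did not overlap, at 449, 682 and 696 RPKM with vehicle and at 437, 418 and 353 RPKM with 7aaRGD. None of these lists had a gene past the threshold.

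Other lists are given by single members or by their counts. Among the lipid-handling phagocyte genes, Lgals3, galectin 3, was at 469, 490 and 445 RPKM with vehicle and at 378, 368 and 403 RPKM with 7aaRGD, while Axl, a receptor for apoptotic cells, was at 249, 249 and 234 RPKM and at 275, 272 and 292 RPKM. Of border-associated macrophage genes, Cd36, a scavenger receptor, had a log2 fold change of -0.57 and Clec4n, a lectin for fungal sugars, one of 0.87, and neither overlapped. Cd80, a ligand of CD28 and CTLA-4, was at 6.06, 4.5 and 6.62 RPKM and at 8.9, 10.3 and 9.16 RPKM, and Lag3, a checkpoint molecule that microglia also express, at 96.2, 62.9 and 64.1 RPKM and at 106, 106 and 133 RPKM. Of 20 genes tested for sterol synthesis and uptake 16 were higher (57.7% of all genes) and 8 without overlap (12.5%), with a median of 0.092 (-0.091 with 7aaRAE). That median was 0.028 without vehicle sample 3 and 0.16 without vehicle sample 2. Sqle, an enzyme of that pathway, had a log2 fold change of 0.39. Cdkn1a, the cell cycle inhibitor p21, was at 106, 109 and 106 RPKM and at 144, 162 and 121 RPKM. Of 29 replication and mitosis genes 23 were higher (57.7% of all genes) and 1 without overlap (12.5%), with a median of 0.07. This median lay between -0.0072 without vehicle sample 1 and 0.17 without vehicle sample 2. Of 50 ribosomal protein genes 48 were higher (57.7% of all genes), with a median of 0.04. It lay between 0.0034 without 7aaRGD sample 3 and 0.08 without 7aaRGD sample 1. Without overlap, 2 were higher (12.5% of all genes) and 1 lower (5.11%).

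The series holds 2 other experiments with 7aaRGD, in which the values of the same genes stand beside these. One was sampled at 28 DPI, with 4 vehicle and 4 7aaRGD samples that also received control IgG. Its labels name nude mice and the study's methods C57BL/6. The other used U87-MG, a human glioma line, in nude mice at 21 DPI, with 3 samples per group. Limma called 63 genes at 28 DPI (0.647%), 12 higher (0.123%) and 51 lower (0.524%), but no more than 1 in any fit without 1 sample. It called 0 with U87-MG (0.00%), with 364 (3.77%) at an unadjusted p under 0.05. Of the 13 genes that rose at 21 DPI, 7 were tested at 28 DPI, where 3 were higher, 4 lower and 0 called, and 10 in U87-MG, where 5 were higher and 5 lower. Homeostatic microglia genes had a median log2 fold change of 0.33 at 28 DPI with 22 of 24 higher (54.4% of all genes), and of -0.17 in U87-MG with 4 of 23 higher (49.2% of all genes). Type I interferon genes had medians of 0.21 at 28 DPI with 28 of 29 higher, and of -0.45 in U87-MG with 0 of 29 higher. Heat shock chaperones had medians of 0.068 and 0.023. Some lists that were higher at 21 DPI were lower at 28 DPI. Of 50 ribosomal protein genes 0 were higher there, with a median of -0.29, and they made up 31 of the 63 genes called. NK and cytotoxic markers were higher in 0 of 9 at 28 DPI (median -0.38), and sterol genes in 1 of 19 (median -0.16). Ttr was at 19.4, 9.29, 4.16 and 1.17 RPKM with vehicle and at 10.3, 0.573, 2.99 and 13.1 RPKM with 7aaRGD at 28 DPI, which overlapped. Spp1 was at 206, 407, 244 and 242 RPKM and at 340, 269, 189 and 541 RPKM there, and overlapped too. Ccl8 was between 24.4 and 128 RPKM with vehicle and between 55.4 and 67.7 RPKM with 7aaRGD at 28 DPI, while in U87-MG it was at 18.4, 11.3 and 17 RPKM and at 4.79, 6.91 and 8.62 RPKM, without overlap. The tables were normalized separately, and differences between the experiments were not tested.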

How the data were processed

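RNA of sorted CD11b+ cells was sequenced from stranded mRNA libraries. Trimmomatic, STAR (mm10) and HTSeq 0.11.1 are the tools the authors name for trimming, alignment and counting. The deposited unit was RPKM with 2 added to it, as read from the values, and the step that added it is not given in the sources used here. Replicate differences lack 1 dimension on the log2(RPKM + 1) scale in this table and in that of 28 DPI (9 of 10), but not in that of U87-MG (6 of 6). The constant was subtracted, and 98.7% of 54513 rows were matched to the GENCODE annotation, 21826 of them protein-coding. Depth is unknown, since read counts were not used here, and count tests were not used. NOISeq, the test of the study, was not run.

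Values were tested as log2(RPKM + 1), a pseudocount of 1, with limma 3.58.1 in R 4.3.3 (lmFit, eBayes with trend) on genes that averaged 1 RPKM or more, with Benjamini-Hochberg adjustment and a threshold of 0.05, two-sided. The 3 tumor-bearing groups of 21 DPI were fitted together, and each other experiment on its own. Fold changes understate the change of low genes. The members, lists and rules were chosen with earlier results of these data known, and the lists of choroid plexus and neural progenitor genes after their values had been seen. Genes named were those past the threshold, the 10 largest rises and falls without overlap, the 3 members with the smallest p of each of 39 lists, and all tested RGD-binding integrins and ligands; P2ry12, Itgam, Csf1r, Lck and members of the 2 added lists were named beside the rule. The rule gives 141 genes, of which the text prints a part, and 1 is not reported here. Alternatives were the pseudocount, the filter, median-of-ratios factors, all named genes, the groups fitted, the replicate number as a block, 1 residual degree of freedom less, each sample left out and a threshold of 0.1. Deviations of samples with the same replicate number correlated over 0.1 in 1 of 9 pairs. The correlations lay between -0.775 and 0.123, the lowest between vehicle sample 1 and 7aaRGD sample 1. The numbers were not treated as pairs in the main fit, and what the negative values reflect was not tested.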

Additional observations from a re-analysis of the deposited data

Results flagged for a closer look

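At 28 DPI, with 4 samples per group, 1 sample stood apart from the other 3 in 7 of 168 groups of values tested, where chance marks about 1 in 20. Among the vehicle samples these were Hspa5 (168 RPKM, the others between 121 and 129), Il1b (226 RPKM, between 104 and 119), Cdkn1a (67.3 RPKM, between 21.6 and 25.5) and Cebpd (9.04 RPKM, between 6.77 and 7.15). Among the 7aaRGD samples they were Fcrls (204 RPKM, between 62.5 and 65.2), Pecam1 (3.55 RPKM, between 2.66 and 2.8) and Anpep (126 RPKM, between 86.3 and 92.6). Groups of 3 samples, as at 21 DPI in GL261 gliomas, were too small for this rule.

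In 4 genes all 7aaRGD samples lay above all vehicle samples in GL261 gliomas at 21 DPI and below them in another experiment. Of the 92 named genes looked at, 84 were tested at 28 DPI and 79 with U87-MG. Over all genes tested, 393 of 9732 were lower without overlap at 28 DPI and 618 of 9659 with U87-MG. The difference between the experiments was not tested. Uchl1 had a log2 fold change of 0.88 at 21 DPI and of -0.36 at 28 DPI, and S100b, a calcium-binding protein of glia, of 0.37 and -0.46. Fcrls had a log2 fold change of 1.19 in GL261 and of -0.64 in U87-MG gliomas, and Lag3 of 0.64 and -0.40.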

How the results depend on the processing

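The count of 14 genes for 7aaRGD against vehicle depended on nearly every choice tried: it was 27 at an adjusted p under 0.1, 0 with a pseudocount of 0.1 RPKM, 41 without the filter on low values, 0 with a filter at 5 RPKM, 0 with median-of-ratios factors, 0 with all named genes, 1 with only the 2 groups compared, 74 with the naïve samples added, 0 with 1 residual degree of freedom less and 0 with the replicate block (969 genes at an unadjusted p under 0.05, limma), and it was 14 with a pseudocount of 5 RPKM. Fits without 1 sample gave between 0 and 120. For 7aaRGD against 7aaRAE, 0 genes became 7 without the filter, 1 with all named genes, 4 with only the 2 groups and 3 with naïve samples added, and between 0 and 1 without 1 sample. For 7aaRAE against vehicle the fits without 1 sample gave between 0 and 2. At 28 DPI, 63 genes became 39 without the filter, 0 with the replicate block and between 0 and 1 without 1 sample. In U87-MG the fits without 1 sample gave between 0 and 2. The cause of these changes was not tested. In GL261 gliomas at 21 DPI, deviations of samples with the same replicate number correlated between -0.775 and 0.123. What the negative values reflect was not tested. For U87-MG no paired analysis was possible because the columns carry no replicate numbers. In the RGD system, 3 genes near 0 changed sign without 1 sample: Itgb1 ranged from -0.077 to 0.0052, Itgav from -0.028 to 0.08 and Mfge8 from -0.20 to 0.084. Of 1431 values for 92 named genes under the alternatives, 1244 kept direction and side of the threshold, 160 lost and 21 gained significance and 6 changed sign. All 160 losses fell on the 14 genes past the threshold, the only ones that could lose significance. Most of the 92 genes were not past it in the main fit, so the 1244 does not measure how stable the calls are. Of 653 list medians, 635 moved by less than the spread between replicates. This count is not a measure of stability. A fit with 1 residual degree of freedom less or with the replicate block leaves the fold changes as they were. Leaving out 1 of 3 samples moves a group mean by less than its SD.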

Other observations

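Further lists are given here beside the 57.7% of all genes tested that were higher with 7aaRGD. Nuclear genes of oxidative phosphorylation, the mitochondrial respiratory chain, were higher in 10 of 41, with a median log2 fold change of -0.036 (between -0.10 and 7.2e-05 without 1 sample), and glycolysis and hypoxia genes in 7 of 31, with a median of -0.083 (between -0.15 and -0.018). MHC class II genes, which present antigen to CD4+ T cells, were higher in 1 of 10, with a median of -0.14 (between -0.21 and -0.10), and those of MHC class I in 1 of 20, with a median of -0.081, which was -0.20 without vehicle sample 1 and -0.017 without vehicle sample 2. Dendritic cell genes were higher in 11 of 13, with a median of 0.22 (between 0.19 and 0.25). In each of these lists 0 genes passed the adjusted threshold (limma). At an unadjusted p under 0.05 there were 1, 2, 2, 0 and 4 in either direction, of which 0, 1, 0, 0 and 4 were higher. Of all genes tested 13.5% were under that p, 9.30% higher and 4.24% lower.

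Inflammatory monocyte genes were higher in 16 of 19, with a median log2 fold change of 0.12 (between 0.045 and 0.13 without 1 sample), and inflammatory cytokines and chemokines in 18 of 25, with a median of 0.19 (between 0.079 and 0.29). Leukocyte integrin subunits were higher in 5 of 7, with a median of 0.18 (between 0.12 and 0.25), and checkpoint and costimulatory genes in 13 of 19, with a median of 0.18 (between 0.10 and 0.26). Immediate early genes were higher in 16 of 26, with a median of 0.059 (between -0.053 and 0.13), circadian clock genes in 6 of 10, with a median of 0.023 (between -0.062 and 0.07), and genes of the TGF-beta pathway in 6 of 12, with a median of 0.015 (between -0.015 and 0.072). Glucocorticoid-responsive genes were higher in 5 of 14, with a median of -0.14 (between -0.25 and 0.0021), lipid-handling phagocyte genes in 7 of 19, with a median of -0.081 (between -0.13 and 0.059), and border-associated macrophage genes in 5 of 11, with a median of -0.11 (between -0.26 and 0.20). In these lists too 0 genes passed the adjusted threshold (limma). At an unadjusted p under 0.05 there were 1, 6, 0, 7, 4, 2, 4, 3, 5 and 3 in either direction. Of these 1, 5, 0, 5, 3, 1, 3, 3, 3 and 1 were higher, beside 13.5% of all genes in either direction and 9.30% higher.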
